A study of Homo sapiens with 9 samples.

Results

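The angiomotins AMOT, AMOTL1 and AMOTL2 were examined together with 7 genes of the Hippo pathway (YAP1, WWTR1, TEAD1, LATS1, LATS2, CCN1 and CCN2) in RNA-seq of OVCAR5, a human ovarian cancer line in long-standing use. The 10 genes were chosen by symbol. AMOT was picked for its higher level in both SM2 and SM4 than in NC, so its levels in those comparisons are a description with no test. CCN1 and CCN2 were included as target genes of YAP. All 10 genes passed the filter on low counts and were among the 19674 genes tested, of 60649 gene identifiers in the count table.

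Of 9 libraries, 3 were labelled NC (control), 3 SM2 and 3 SM4, and the labels describe SM2 and SM4 as METTL3 knockdown. All groups came from stable lines made by lentiviral transduction and puromycin selection and grown in RPMI-1640 medium with fetal bovine serum. The labels call the NC cells parental while the study's methods name a control hairpin, and the labels do not state which METTL3 hairpin SM2 or SM4 carried, nor whether a line was a pool or a clone. The cell line field reads OVCAR5 for every library, but the source field of the SM4 libraries reads OVCAR6, OVCAR7 and OVCAR8. Nothing in the labels ties replicates to separate cultures, so p-values measure the spread between these libraries, which may be technical.

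The libraries held 44103272 to 63693728 counts. METTL3, the gene the labels give as knocked down, had 34.4 to 36.6 CPM (counts scaled to library depth with TMM factors) in NC, 37.1 to 40.0 CPM in SM2 and 57.5 to 62.4 CPM in SM4. It was higher in SM4 than in NC by 0.75 on the log2 scale (SE 0.0539, edgeR adjusted p 2.21e-09) and than in SM2 by 0.63 (SE 0.0538, adjusted p 7.46e-08), and it was not lower in SM2 than in NC (0.12, adjusted p 0.12). The labelled knockdown libraries thus held as much METTL3 RNA as the labelled controls or more. From the labels alone, which group served as the control is therefore in doubt. With SM4 as the reference, METTL3 was at -0.75 in NC and -0.63 in SM2. The study's supplement lists the same METTL3 values for its hairpin lines against the control hairpin, which puts SM4 in the place of that control. The same holds for CCN1, CCN2 and VGLL1. These values also put NC and SM2 in the places of the hairpin lines. On that reading, SM2 against NC compares hairpin lines with each other, and its values and counts below include no control. NC, SM2 and SM4 below mean the libraries with those labels. Higher and lower (than NC, where no other group is named) describe these libraries and not a response to knockdown. Values with SM4, the group highest in METTL3, as the reference are also given for some genes. These are AMOT, AMOTL2, YAP1, CCN1, CCN2, VGLL1, ANKRD1, CRIM1 and the list of YAP and TAZ targets. For the other genes, directions given against NC may change with SM4 as the reference. All 6 epithelial markers examined were expressed, with a summed level of 10200 to 12100 CPM. Of 4 leukocyte markers, PTPRC and CD3E did not exceed 4 counts in any library and the summed level (mostly LYZ) was 40.9 to 45.0 CPM in NC, 59.0 to 62.7 in SM2 and 41.0 to 44.3 in SM4. Of 5 endothelial markers only PECAM1 passed the filter, the sum was 5.45 to 5.89 CPM in NC, 7.79 to 9.05 in SM2 and 13.1 to 15.3 in SM4, and KDR was at 0 throughout. Of 5 ovarian carcinoma markers 3 were expressed, with sums of 35.6 to 38.8, 61.6 to 71.7 and 72.9 to 78.2 CPM, while WT1 and SOX17 did not exceed 10 counts. The fibroblast sum (mostly COL1A1) was 21.3 to 26.5 CPM over all groups, with DCN at no more than 4 counts, and the gastrointestinal sum (mostly CDX2) was 10.9 to 14.9 CPM. The part of these marker levels in the results below was not tested. Within the groups the 10 genes tended to be high or low in the same library. NC replicate 1 was the highest of its group for 7 and NC replicate 3 the lowest for 7, SM2 replicate 1 was the highest for 8 and SM2 replicate 3 the lowest for 9, and SM4 replicate 3 was the lowest for 6. Over all genes tested, a library was the lowest of its group for 28.4% to 37.0% and the highest for 28.9% to 38.8%.

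The Hippo pathway is a kinase cascade that restrains growth when cells are crowded or well attached to their neighbours. Its kinases LATS1 and LATS2 phosphorylate the co-activators YAP and TAZ, which keeps them out of the nucleus, and unphosphorylated YAP and TAZ bind TEAD transcription factors at target genes such as CCN1 and CCN2. Angiomotins are scaffold proteins of cell junctions and the actin cytoskeleton that bind YAP and also promote LATS activity, and AMOTL2 and LATS2 are themselves YAP targets.

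Levels of different genes were compared per length, as CPM per kilobase of merged exons. In NC, YAP1 had the highest level (45.7 ± 1.12 CPM per kilobase, SD, n = 3), and TEAD1 (29.6 ± 1.56) and CCN1 (27.9 ± 1.19) followed with ranges that overlapped. Next came AMOTL2 at 17.4 ± 0.479, AMOTL1 at 14.8 ± 0.56 and LATS2 at 9.91 ± 0.169 CPM per kilobase, each apart from the next. WWTR1 (8.17 ± 0.22) and CCN2 (7.39 ± 0.526) overlapped, LATS1 followed at 6.27 ± 0.224, and AMOT was by far the lowest at 0.0423 ± 0.012 CPM per kilobase. The order in SM2 was the same, with AMOTL1 and LATS2, and CCN2 and LATS1, overlapping. In SM4 both targets stood lower in the order: CCN1, at rank 3 in NC, was at rank 5 with 15.6 ± 0.286 CPM per kilobase and overlapped AMOTL1, and CCN2 at 4.19 ± 0.264 lay below LATS1. With the longest transcript as the length, WWTR1 (13.5 CPM per kilobase in NC) ranked above LATS2 (10.0). AMOT was the lowest of the 10 in every group by either length.

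**Figure D1:**
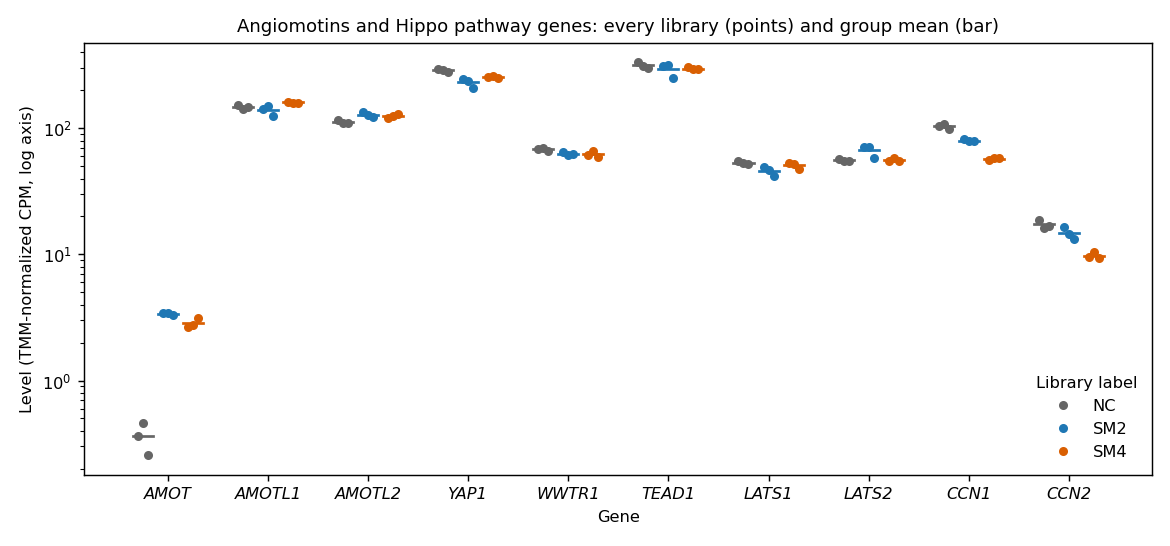
Level of the 10 genes in each library, in TMM-normalized CPM on a log axis, with points for the 3 libraries of each label (NC grey, SM2 blue, SM4 orange) and a bar for the group mean. AMOT is at 0.36 CPM in NC, 3.39 in SM2 and 2.85 in SM4, CCN1 and CCN2 are highest in NC and lowest in SM4, and the other genes differ little between groups.

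AMOT (ENSG00000126016.17, protein-coding, chromosome X, 112774503 to 112840831, minus strand, GRCh38) encodes the founding angiomotin. It had 16, 25 and 15 counts in the NC libraries, 158, 165 and 174 in SM2 and 163, 173 and 160 in SM4. Scaled to depth, these were 0.365, 0.46 and 0.256 CPM in NC, 3.46, 3.43 and 3.28 CPM in SM2, and 2.68, 2.74 and 3.12 CPM in SM4. Every SM2 and SM4 library lay far above every NC library. The level was 9.41-fold that of NC in SM2 (log2 fold change 3.23, SE 0.208, 95% interval 2.80 to 3.67) and 7.89-fold in SM4 (2.98, SE 0.209, 95% interval 2.54 to 3.42). Of all genes tested, 0.152% differed more than AMOT in SM2 and 0.178% in SM4, in either direction. As AMOT was picked for these differences, its rank and the intervals against NC follow from the choice and test nothing. SM4 against SM2, which played no part in the choice of AMOT, gave a log2 fold change of -0.25 (95% interval -0.59 to 0.08, edgeR adjusted p 0.345). The SM4 libraries all lay below the SM2 libraries, but that difference did not pass the test. With SM4 as the reference, AMOT thus stood at -2.98 in NC and at 0.25 in SM2 (95% interval -0.08 to 0.59) on the log2 scale, low in 1 group and not shown to differ in the other. In bulk RNA, more cells with AMOT transcripts and more AMOT RNA per cell cannot be told apart.

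Even where it was highest, AMOT was a small part of the angiomotin transcripts. Its share of the summed level of AMOT, AMOTL1 and AMOTL2, per length, was 0.132% ± 0.0388 in NC, 1.17% ± 0.0394 in SM2 and 0.937% ± 0.0688 in SM4. AMOTL2 held 53.9% ± 0.423 of the sum in NC, 58.1% ± 1.8 in SM2 and 54.1% ± 1.25 in SM4, and AMOTL1 held 45.9% ± 0.46, 40.7% ± 1.83 and 45.0% ± 1.3. AMOTL1 exceeded AMOT 371 ± 113 times per length in NC and 34.9 ± 2.46 times in SM2.

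AMOTL1 (ENSG00000166025.18, chromosome 11, 94706431 to 94876748) encodes an angiomotin of tight junctions. Its levels were 154, 143 and 148 CPM in NC, 143, 151 and 125 CPM in SM2, and 163, 160 and 159 CPM in SM4. The SM2 range overlapped that of NC, and every SM4 library lay above every NC and SM2 library. Neither comparison with NC passed the test (log2 fold change -0.09 in SM2, edgeR adjusted p 0.286, and 0.12 in SM4, adjusted p 0.153). AMOTL1 was higher in SM4 than in SM2 by 0.20 on the log2 scale (SE 0.0549, edgeR adjusted p 0.0162). That call was lost without SM4 replicate 1 (0.20, adjusted p 0.0794) or SM4 replicate 2 (0.20, adjusted p 0.0539), and without SM2 replicate 3 the difference of SM4 from NC passed (0.12, adjusted p 0.0177).

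AMOTL2 (ENSG00000114019.15, chromosome 3, 134355347 to 134375479) encodes the angiomotin that YAP itself induces. It was at 116, 111 and 111 CPM in NC, 135, 128 and 122 CPM in SM2, and 120, 126 and 129 CPM in SM4, with both groups above all NC libraries. It was higher by 0.19 on the log2 scale in SM2 (SE 0.0477, edgeR adjusted p 0.00581) and by 0.15 in SM4 (SE 0.0476, adjusted p 0.0284). The SM4 call rested on the full set of libraries: adjusted p was 0.123 without NC replicate 2, 0.107 without NC replicate 3, 0.0975 without SM4 replicate 2 and 0.141 without SM4 replicate 3, at log2 fold changes of 0.13 to 0.14. SM4 and SM2 overlapped, with a difference of -0.04 (95% interval -0.14 to 0.06). Against SM4 as the reference, AMOTL2 stood at -0.15 in NC and at 0.04 in SM2. AMOT thus differed 9.41-fold and 7.89-fold, where its paralogs differed by at most 1.14-fold.

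LATS1 (ENSG00000131023.13, chromosome 6, 149658153 to 149718105) and LATS2 (ENSG00000150457.9, chromosome 13, 20973036 to 21061586) encode the kinases that phosphorylate YAP and TAZ. LATS1 was at 55.4, 52.8 and 51.7 CPM in NC, 49.6, 46.5 and 41.6 CPM in SM2, and 52.9, 52.5 and 47.2 CPM in SM4. All SM2 libraries lay below NC, and SM4 overlapped NC. LATS1 was lower by 0.22 on the log2 scale in SM2 (SE 0.0632, edgeR adjusted p 0.0169), a call that was lost without NC replicate 1 (-0.19, adjusted p 0.0926) or SM2 replicate 3 (-0.14, adjusted p 0.0668). In SM4 against NC the difference was -0.07 (adjusted p 0.536) and in SM4 against SM2 it was 0.15 (adjusted p 0.132; 0.0357 without SM2 replicate 1).

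LATS2 differed the other way in SM2. Its levels were 56.7, 55.2 and 55.0 CPM in NC, 71.8, 70.9 and 57.9 CPM in SM2, and 54.8, 57.7 and 55.6 CPM in SM4. All SM2 libraries lay above NC, but SM2 replicate 3 did so only slightly, and SM4 overlapped NC. LATS2 was higher by 0.26 in SM2 (SE 0.0644, edgeR adjusted p 0.00477), was 0.01 from NC in SM4 (adjusted p 0.937), and was lower in SM4 than in SM2 by 0.25 (log2 fold change -0.25, SE 0.0642, adjusted p 0.0109). The last call was lost without SM2 replicate 1 (-0.20, adjusted p 0.0509), SM2 replicate 2 (-0.21, adjusted p 0.0716) or SM4 replicate 1 (-0.23, adjusted p 0.0712). The ratio of LATS1 to LATS2, per length, was 0.633 ± 0.012 in NC, 0.455 ± 0.0207 in SM2 and 0.600 ± 0.0381 in SM4, so the SM2 ratios were apart from the others.

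YAP1 (ENSG00000137693.14, chromosome 11, 102110447 to 102233424) encodes YAP, the main co-activator of the pathway. It was at 293, 292 and 280 CPM in NC, 247, 239 and 209 CPM in SM2, and 254, 260 and 249 CPM in SM4. The 3 groups did not overlap, with NC highest and SM2 lowest. YAP1 was lower by 0.32 on the log2 scale in SM2 (SE 0.0514, edgeR adjusted p 0.000113) and by 0.18 in SM4 (SE 0.0512, adjusted p 0.0142). The SM4 call was lost without NC replicate 1 (adjusted p 0.0739), NC replicate 2 (0.0603), SM4 replicate 1 (0.0688) or SM4 replicate 3 (0.0667), at log2 fold changes of -0.17 to -0.18. SM4 exceeded SM2 by 0.14 without passing (adjusted p 0.0933; 0.0222 without SM2 replicate 1). Against SM4 as the reference, YAP1 thus stood at 0.181 in NC and at -0.135 in SM2, on opposite sides of SM4.

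WWTR1 (ENSG00000018408.15, chromosome 3, 149517235 to 149736714) encodes TAZ, the paralog of YAP. Its levels were 68.9, 69.6 and 66.1 CPM in NC, 64.4, 61.4 and 62.4 CPM in SM2, and 61.6, 65.6 and 59.3 CPM in SM4. Both SM groups lay below NC and overlapped each other. The differences from NC, -0.12 in SM2 (95% interval -0.23 to -0.02, edgeR adjusted p 0.0928) and -0.13 in SM4 (95% interval -0.24 to -0.03, adjusted p 0.0652), did not pass the threshold after adjustment. In SM4 against NC the adjusted p was 0.0177 with only the 6 libraries compared, 0.0355 without SM2 replicate 3 and 0.0365 without SM4 replicate 2. YAP1 exceeded WWTR1 5.60 ± 0.0385 times per length in NC, 4.89 ± 0.392 times in SM2 and 5.42 ± 0.162 times in SM4.

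TEAD1 (ENSG00000187079.20, chromosome 11, 12674421 to 12944737) encodes a DNA-binding partner of YAP and TAZ. It was at 334, 315 and 301 CPM in NC, 312, 316 and 251 CPM in SM2, and 305, 294 and 293 CPM in SM4, and the groups overlapped. Log2 fold changes were -0.11 in SM2 against NC (95% interval -0.25 to 0.02), -0.09 in SM4 against NC (-0.22 to 0.04) and 0.02 in SM4 against SM2 (-0.11 to 0.15), and none passed the test. Without SM2 replicate 3, whose level was the lowest of all 9 libraries, the first was -0.01 and the last was -0.08.

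CCN1 (ENSG00000142871.18, chromosome 1, 85580761 to 85584589) and CCN2 (ENSG00000118523.6, chromosome 6, 131948176 to 131951372) encode secreted matricellular proteins and are widely used as readouts of YAP, TAZ and TEAD. CCN1 was at 104, 108 and 98.9 CPM in NC, 82.1, 79.4 and 78.8 CPM in SM2, and 56.5, 57.8 and 58.6 CPM in SM4. The groups were well apart, with SM2 between NC and SM4. CCN1 was lower by 0.37 on the log2 scale in SM2 (SE 0.0464, edgeR adjusted p 5.89e-06) and by 0.84 in SM4 (SE 0.0468, adjusted p 5.39e-11), and SM4 was lower than SM2 (log2 fold change -0.47, SE 0.047, adjusted p 5.08e-07). With SM4 as the reference, CCN1 was thus higher by 0.84 in NC and by 0.47 in SM2.

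CCN2 followed the same order at lower levels, with 18.7, 16.3 and 16.9 CPM in NC, 16.5, 14.6 and 13.2 CPM in SM2, and 9.52, 10.5 and 9.34 CPM in SM4. SM2 overlapped NC, and SM4 lay below every other library. CCN2 was lower by 0.82 on the log2 scale in SM4 against NC (SE 0.089, edgeR adjusted p 7.88e-07) and by 0.59 in SM4 against SM2 (SE 0.0899, adjusted p 0.0001). With SM4 as the reference, CCN2 was thus higher by 0.82 in NC and by 0.59 in SM2. Its difference in SM2 against NC, -0.23, missed the threshold (SE 0.0875, adjusted p 0.0696) and passed it without SM2 replicate 1 (-0.32, adjusted p 0.0153). CCN1 exceeded CCN2 3.79 ± 0.345 times per length in NC, 3.45 ± 0.314 times in SM2 and 3.73 ± 0.244 times in SM4, so the ratio overlapped between groups while both genes were lower in SM4.

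The 250 bases before the transcription start are shown for CCN2, which had the most copies of the TEAD element, for YAP1, which had a single copy, and for AMOT, whose level differed most and which had none. The sequences are from RefSeq (GRCh38.p14) and read 5′ to 3′ along the strand of the gene, and capitals mark the TEAD element GGAATG. They are CCN2 at chr6:131951373-131951622 (minus strand), YAP1 at chr11:102110197-102110446 (plus strand) and AMOT at chrX:112840832-112841081 (minus strand).
CCN2: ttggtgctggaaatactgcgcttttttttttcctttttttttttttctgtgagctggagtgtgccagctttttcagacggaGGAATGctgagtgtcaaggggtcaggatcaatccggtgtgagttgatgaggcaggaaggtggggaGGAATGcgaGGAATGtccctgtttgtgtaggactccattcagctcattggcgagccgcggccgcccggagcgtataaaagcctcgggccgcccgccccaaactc
YAP1: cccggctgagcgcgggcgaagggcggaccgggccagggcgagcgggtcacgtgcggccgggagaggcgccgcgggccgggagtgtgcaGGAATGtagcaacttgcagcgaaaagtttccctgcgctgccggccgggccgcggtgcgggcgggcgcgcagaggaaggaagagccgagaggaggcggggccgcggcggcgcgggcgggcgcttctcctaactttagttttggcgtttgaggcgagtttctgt
AMOT: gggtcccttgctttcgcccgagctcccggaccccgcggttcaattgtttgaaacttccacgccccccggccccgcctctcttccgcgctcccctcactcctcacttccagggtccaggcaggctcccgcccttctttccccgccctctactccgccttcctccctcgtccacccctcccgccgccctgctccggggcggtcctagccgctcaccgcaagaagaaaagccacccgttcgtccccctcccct
The first base of the CCN2 matches lay 169, 104 and 95 bases before the start, and that of the YAP1 match 162 bases before it.

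Both strands were searched in this window of 35116 promoters for GGAATG and for TGANTCA (N, any base), a loose AP-1-like pattern. Of these promoters, 11.9% held the former and 6.57% the latter. The promoter table held 11 promoters of 8 of the 10 genes. It had no entry for CCN1 or TEAD1, so these were not searched. GGAATG was present in 3 of the 11, those of CCN2 and YAP1 and 1 of the AMOTL2 starts, where it lay on the opposite strand, 69 bases before the start. TGANTCA was present in 1 promoter, of LATS1, where it read TGAATCA, with no overlap between the motifs. Of the wider list of 22 YAP and TAZ targets described below, 16 genes had 18 promoters in the table, and 8 of these held GGAATG. These matches describe the letters in the window and are not evidence of binding.

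Counting the genes together, 5 of the 9 other than AMOT were called in SM2 against NC (edgeR adjusted p below 0.05), where 22.3% of all genes tested were called. AMOTL2 and LATS2 were the 2 higher in SM2 (as were 12.0% of all genes), and YAP1, LATS1 and CCN1 were the 3 lower (10.3% of all genes). In SM4 against NC, 4 of the 9 were called, against 21.2% of all genes. AMOTL2 was higher in SM4 (11.0% of all genes) and YAP1, CCN1 and CCN2 were lower (10.2%). Without NC replicate 2 or without SM4 replicate 3 this count was 2, and without SM2 replicate 3 it was 6. In SM4 against SM2, 4 of 10 were called, against 12.8% of all genes: AMOTL1 was higher (6.04% of all genes) and LATS2, CCN1 and CCN2 were lower (6.76%). Without SM4 replicate 1 this count was 2, and that of all genes was 1574 where it had been 2518. The median log2 fold change was -0.12 over the 9 genes in SM2 and -0.09 in SM4, and -0.03 over the 10 genes in SM4 against SM2, where the median over all genes was within 0.004 of 0 in each comparison. For scale, the median absolute difference of all called genes was 0.31 in both comparisons with NC, and 5.46% and 5.77% of all genes differed more than CCN1 and CCN2 in SM4.

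**Figure D2:**
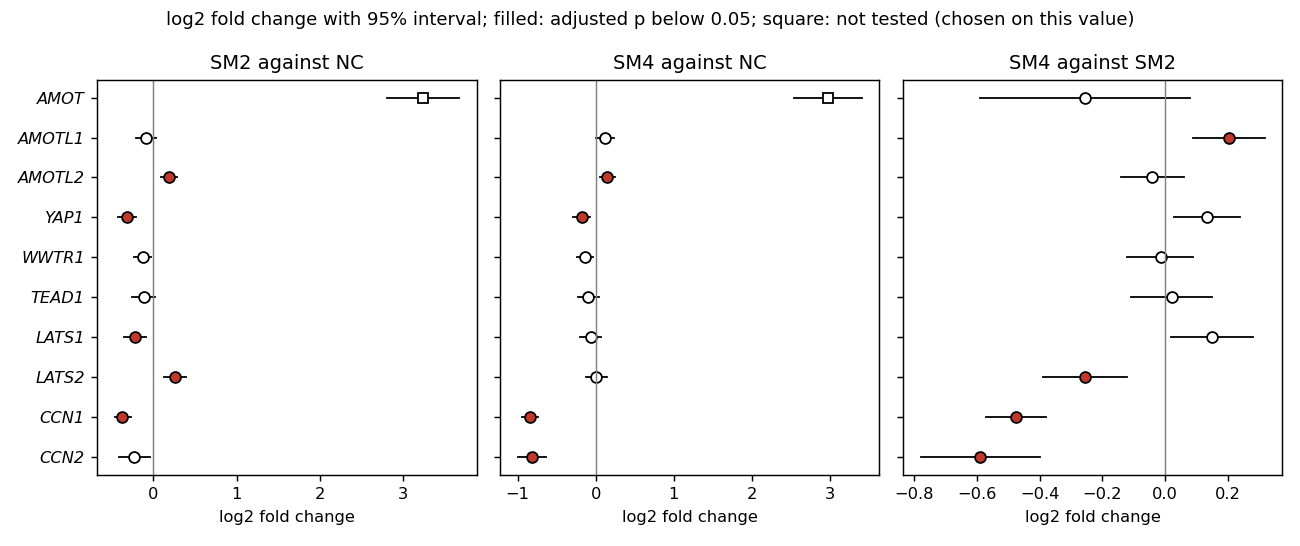
Fitted log2 fold changes of the 10 genes (points) with 95% intervals (lines), for SM2 against NC (left), SM4 against NC (middle) and SM4 against SM2 (right), each panel with its own horizontal scale. Filled points had an adjusted p below 0.05, and squares mark AMOT where it was not tested. CCN1 and CCN2 lie at -0.84 and -0.82 in the middle panel, and no tested gene other than these exceeds 0.32 in absolute value against NC.

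The wider pathway was described from lists of 96 other genes, of which 92 were tested; FRMD1, DCHS2, MPDZ and VGLL2 were filtered out. In SM2 against NC 30 of the 92 were called (12 higher, 18 lower, 32.6%), in SM4 against NC 37 (15 higher, 22 lower, 40.2%) and in SM4 against SM2 24 (13 higher, 11 lower, 26.1%; 15 called without SM4 replicate 1 and 18 without SM4 replicate 3). Of all genes tested, 22.3%, 21.2% and 12.8% were called in these comparisons. Here and elsewhere, the shares over all genes were not matched to the lists by level, and genes with few counts are harder to call. In SM2 the count was 20 without NC replicate 1. The median log2 fold changes were -0.02 in both comparisons with NC. The lists were written with earlier results of these data known, and the counts are given with no test of the lists.

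**Figure D3:**
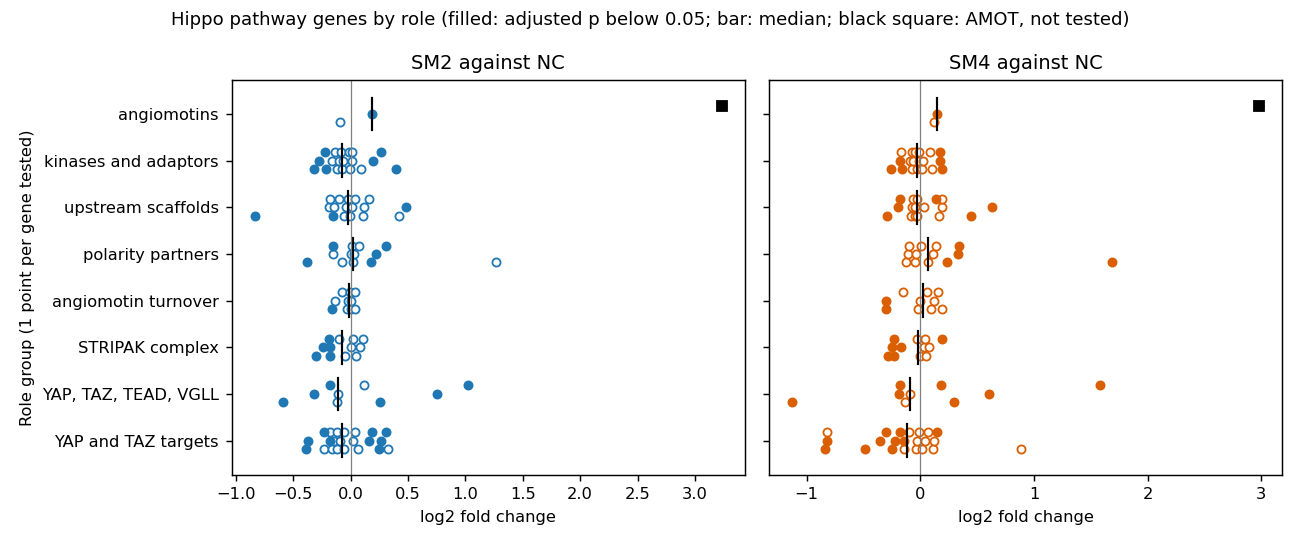
Log2 fold changes of all tested pathway genes, the 10 included, grouped by role, in SM2 against NC and SM4 against NC. Each point is a gene, filled where its adjusted p was below 0.05, the black bar is the median of the role group and the black square is AMOT, which was not tested. The medians of all groups but the 3 angiomotins lie between -0.12 and 0.07, and the points furthest from 0 other than AMOT are CRB2 (below 1 CPM) and VGLL1 in both panels, followed by WWC3 in SM2 and VGLL3 in SM4.

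Among the transcriptional partners of YAP and TAZ, TEAD1 passed in no comparison. Of the 6 other TEAD and VGLL genes tested, 5 were called in SM2 against NC (3 higher, 2 lower) and 6 in SM4 against NC (4 higher, 2 lower), where 22.3% and 21.2% of all genes were called. VGLL1, a TEAD co-factor that competes with YAP for TEAD, was at 7.53, 7.21 and 6.63 CPM in NC, 14.1, 13.9 and 15.2 CPM in SM2, and 19.8, 22.7 and 21.2 CPM in SM4. The groups did not overlap, and VGLL1 was higher than in NC by 1.02 in SM2 and 1.58 in SM4 on the log2 scale (edgeR adjusted p 2.02e-08 and 1.8e-11) and higher in SM4 than in SM2 by 0.56 (adjusted p 3.34e-05). With SM4 as the reference, it stood at -1.58 in NC and -0.56 in SM2. VGLL3, another TEAD co-factor of this family, did the reverse, with 20.1, 18.6 and 16.8 CPM in NC, 13.2, 12.9 and 10.8 CPM in SM2, and 9.00, 8.54 and 7.80 CPM in SM4. It was lower by 0.59 in SM2 and by 1.13 in SM4 (adjusted p 6.74e-05 and 1.51e-08). TEAD2 was higher by 0.76 in SM2 and 0.60 in SM4 than in NC (4.05 ± 0.326 CPM), and TEAD3 was higher by 0.26 and 0.30 than in NC (29.0 ± 2.17 CPM), although TEAD3 in SM2 lost its call without NC replicate 1 (adjusted p 0.0536).
TEAD4 was slightly lower in both (-0.18 and -0.19) than in NC (45.5 ± 1.96 CPM) and VGLL4 was higher in SM4 (0.18) than in NC (28.3 ± 1.89 CPM), but leaving out single libraries ended these calls: adjusted p reached 0.129 and 0.117 for TEAD4 and 0.273 for VGLL4, in 4, 4 and 7 of the 9 omissions.

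The list of 22 YAP and TAZ targets, which contains CCN1, CCN2, AMOTL2 and LATS2, is described by its counts, with no test of the list. In SM2 against NC 5 were higher and 4 lower (12.0% and 10.3% of all genes), with a median of -0.08. In SM4 against NC 1 was higher (AMOTL2) and 9 lower (11.0% and 10.2% of all genes), with a median of -0.12. In SM4 against SM2 2 were higher and 8 lower (6.04% and 6.76% of all genes), with a median of -0.10. With SM4 as the reference, 9 of the list were thus higher in NC and 8 higher in SM2. Without the 4 genes already described the counts of higher and lower genes were 3 and 3 in SM2 and 0 and 7 in SM4, and 2 and 5 in SM4 against SM2. TGFB2, a growth factor, was lower by 0.49 in SM4 (adjusted p 1.6e-06) and had -0.15 in SM2 (adjusted p 0.0657). F3, tissue factor, was lower by 0.38 in SM2 and 0.24 in SM4, and AXL, a receptor tyrosine kinase, was lower by 0.18 and 0.35. The AXL call in SM2 was lost without NC replicate 2 (adjusted p 0.0785). GADD45A, a growth-arrest gene, was higher by 0.31 in SM2 (adjusted p 0.00108) and had 0.12 in SM4 (adjusted p 0.2).

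The pair ANKRD1 and CRIM1, named after their values were seen, differed from NC in opposite directions in SM2 and SM4. ANKRD1, a nuclear ankyrin repeat protein, was at 87.6, 85.4 and 84.6 CPM in NC, 94.5, 97.0 and 97.0 CPM in SM2, and 67.1, 69.4 and 72.4 CPM in SM4. It was higher by 0.16 in SM2 (adjusted p 0.0114; 0.0536 at most without NC replicate 2 or NC replicate 3) and was lower by 0.30 in SM4 (adjusted p 4.27e-05), and SM4 was below SM2 by 0.47 (log2 fold change -0.47, adjusted p 3.88e-07). CRIM1, a transmembrane protein that binds growth factors, was higher by 0.25 in SM2 (adjusted p 0.000912), while its difference in SM4, lower by 0.14 (adjusted p 0.0472), was lost in 10 of the 16 alternatives. The opposite directions depend on NC as the reference. With SM4 as the reference, ANKRD1 was higher by 0.30 in NC and 0.47 in SM2, and CRIM1 by 0.14 and 0.39.

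**Figure D4:**
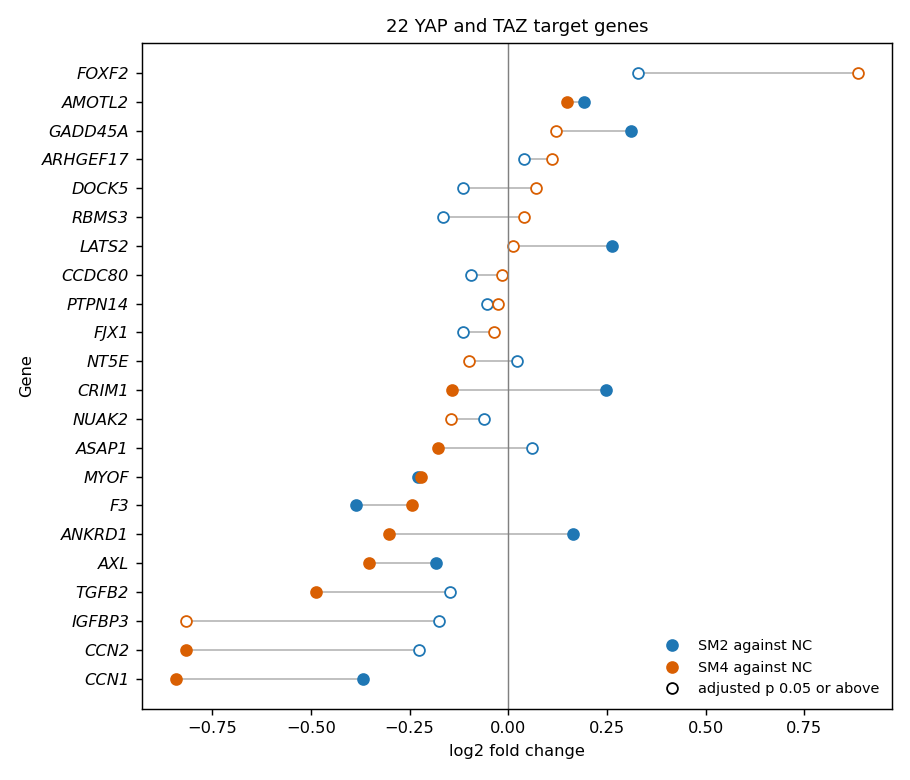
Log2 fold changes of the 22 YAP and TAZ target genes in SM2 against NC (blue) and SM4 against NC (orange), joined by a line per gene and ordered by the SM4 value. Open points had an adjusted p of 0.05 or above. CCN1 and CCN2 are the lowest called genes in SM4, AMOTL2 is the only called gene to the right of 0 in SM4, and FOXF2 and IGFBP3 are low-count genes whose values did not pass.

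Among the other kinases and adaptors of the cascade, 5 of 17 were called in SM2 (2 higher, 3 lower) and 6 of 17 in SM4 (3 higher, 3 lower), or 29.4% and 35.3% against 22.3% and 21.2% of all genes. SAV1, the scaffold that joins the MST and LATS kinases, was at 112, 108 and 105 CPM in NC, 153, 142 and 132 CPM in SM2, and 99.0, 110 and 104 CPM in SM4. It was higher by 0.40 in SM2 (edgeR adjusted p 1.48e-05), was -0.05 from NC in SM4 (adjusted p 0.583), and was lower in SM4 than in SM2 (-0.45, adjusted p 6.08e-06), a pattern like that of LATS2. The MAP4K-family kinases TNIK and MAP4K4, of a group that can activate LATS, were lower by 0.32 and 0.28 in SM2 and by 0.26 and 0.18 in SM4, where MAP4K4 lost its call without NC replicate 1 or SM4 replicate 3 (adjusted p 0.0735 at most). MOB1B, a LATS cofactor, was lower by 0.23 in SM2 and its paralog MOB1A by 0.16 in SM4. These calls were lost without NC replicate 1 or NC replicate 2 and, for MOB1A, also without SM4 replicate 1 or SM4 replicate 3 (adjusted p 0.0813 and 0.136 at most). The MST kinases STK3 and STK4 passed in neither comparison with NC (log2 fold changes of -0.08 to 0.11).

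Of the 17 tested upstream scaffolds, 3 were called in SM2 (1 higher, 2 lower) and 6 in SM4 (3 higher, 3 lower), or 17.6% and 35.3% against 22.3% and 21.2% of all genes. WWC3, a KIBRA-family protein, was at 6.02, 4.73 and 4.39 CPM in NC, 2.71, 3.14 and 2.60 CPM in SM2, and 6.23, 5.19 and 5.50 CPM in SM4. SM2 lay below every other library: WWC3 was lower by 0.83 in SM2 (edgeR adjusted p 0.00018), had 0.17 in SM4 (adjusted p 0.43), and was 1.00 higher in SM4 than in SM2 (adjusted p 3.71e-05). WTIP, a LIM protein of the Ajuba family that restrains LATS, was higher by 0.48 and 0.63 than in NC (5.15 ± 0.34 CPM). DLG5, a polarity scaffold, was higher by 0.44 in SM4 (adjusted p 5.18e-05) and FRMD6, a FERM-domain protein, was lower by 0.29 (adjusted p 0.00352), with -0.18 in SM2 (adjusted p 0.074). NF2, which encodes merlin, did not pass (-0.14 in SM2 and -0.05 in SM4).

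The cell polarity partners of the angiomotins gave 5 calls of 13 in SM2 (3 higher, 2 lower) and 4 in SM4, all higher, where 22.3% and 21.2% of all genes were called and 11.0% were higher in SM4. PARD6B, a polarity adaptor, was higher by 0.31 in SM2 and 0.33 in SM4 than in NC (33.2 ± 1.42 CPM) (edgeR adjusted p 0.000649 and 0.000325). MAGI1, a junction scaffold, was higher by 0.34 in SM4 (adjusted p 0.000374), and its 0.18 in SM2 (adjusted p 0.045) was lost in 8 alternatives. LLGL2, a basolateral polarity gene, was higher by 0.23 in SM4 than in NC (163 ± 4.06 CPM) (adjusted p 0.000955), had 0.02 in SM2, and was 0.21 higher in SM4 than in SM2 (adjusted p 0.0036). LIN7C, a polarity scaffold, was lower by 0.38 in SM2 (adjusted p 4.45e-06), had -0.10 in SM4 (adjusted p 0.154), and was 0.28 higher in SM4 than in SM2 (adjusted p 0.000254).

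Of 10 genes for the turnover of angiomotins by ubiquitin ligases and tankyrases, 1 was called in SM2 and 2 in SM4, all lower, where 22.3% and 21.2% of all genes were called. NEDD4, a ligase that targets angiomotins, was at 88.8, 86.2 and 82.1 CPM in NC, 87.7, 84.3 and 72.6 CPM in SM2, and 68.4, 68.8 and 70.9 CPM in SM4, with SM4 below all other libraries. It was lower by 0.31 in SM4 (edgeR adjusted p 0.000614) and had -0.07 in SM2 (adjusted p 0.435). Its paralog NEDD4L was lower by 0.30 in SM4 (adjusted p 0.000145), and its call in SM2, lower by 0.16, was lost with only the 6 libraries compared and without NC replicate 1, NC replicate 2 or SM2 replicate 3 (adjusted p 0.11 at most). In the STRIPAK phosphatase complex, which opposes the MST kinases, 5 of 12 genes were lower and 0 higher in SM2, and 5 were lower and 1 higher in SM4, where 10.3% and 10.2% of all genes were lower. SIKE1 was lower by 0.30 and 0.25 and STRN3 by 0.24 and 0.23. MOB4 was lower by 0.18 and 0.23, the former call being lost with only the 6 libraries compared and without NC replicate 1, NC replicate 2, SM2 replicate 1 or SM2 replicate 2 (adjusted p 0.157 at most). CTTNBP2NL was lower by 0.29 in SM4, a call that was lost without NC replicate 1 (adjusted p 0.0943), and had 0.05 in SM2.

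The genes whose profile was most like that of AMOT were ranked by the root mean square difference of log2 CPM (with 0.1 CPM added) over the 9 libraries, after subtraction of each gene's NC mean, among genes with a mean of at least 1 CPM. The 5 closest were PALM (0.19), JAM3 (0.25), BICC1 (0.26), AUTS2 (0.30) and MSN (0.36). They encode a membrane-associated phosphoprotein, a junctional adhesion molecule, an RNA-binding protein, a nuclear regulator of transcription and moesin, which links actin to the membrane. PALM was at 0.913, 0.883 and 0.82 CPM in NC, 7.53, 6.32 and 6.00 CPM in SM2, and 5.44, 6.00 and 6.11 CPM in SM4, a 7.59-fold and 6.71-fold difference from NC. MSN was the most abundant of them at 2.14 ± 0.666 CPM in NC, 24.1 ± 1.14 in SM2 and 11.4 ± 0.473 in SM4, so its SM4 level was 0.473 of that in SM2, where that of AMOT was 0.838. As AMOT was chosen on these libraries, this ranking is a description.

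**Figure D5:**
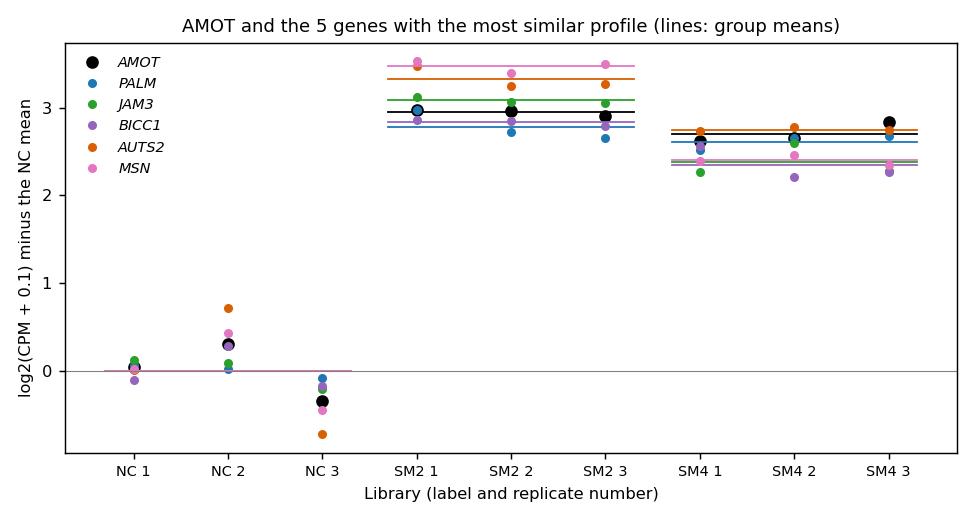
Profiles of AMOT (black) and the 5 genes most like it over the 9 libraries, as log2(CPM + 0.1) minus the mean of the NC libraries, with a line for each group mean. All 6 genes lie between 2.65 and 3.52 in SM2 and between 2.21 and 2.83 in SM4, and the NC libraries, where counts are low, lie between -0.72 and 0.72.

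The gene bodies within 500 kb were examined for each of the 10 genes. AMOT had no tested neighbour. YAP1 had 11, of which 5 were called in SM2 and 5 in SM4, and LATS1 had 25, of which 4 and 3 were called. WWTR1 had 16, of which 6 were called in SM2 and 5 in SM4, where 22.3% and 21.2% of all genes were called. The closest of those called at least 2-fold was TM4SF4, a tetraspan membrane protein 13.8 kb from WWTR1 on the other strand, at 0.441 ± 0.075 CPM in NC, 4.80 ± 1.12 in SM2 and 5.70 ± 0.203 in SM4. It was higher by 3.42 in SM2 and 3.67 in SM4 on the log2 scale (edgeR adjusted p 1.77e-10 and 3.26e-11), whereas WWTR1 itself did not pass. TM4SF18, 183 kb from WWTR1, was higher by 0.30 and 1.03. SLCO2A1, a prostaglandin transporter 303 kb from AMOTL2, was higher by 2.92 in SM2 and 1.95 in SM4 than in NC. Its levels were low, at 0.104 ± 0.0577 CPM in NC, 0.826 in SM2 and 0.426 in SM4, with at most 42 counts in a library. ULBP1, a ligand of the NKG2D receptor 246 kb from LATS1, was higher by 1.07 and 1.21 than in NC (3.41 ± 0.205 CPM). RAB6B, a Golgi GTPase 459 kb from AMOTL2, was higher by 1.06 and 1.23 than in NC (0.885 ± 0.314 CPM). Other called neighbours with 2-fold changes were the lncRNA ENSG00000281655 near YAP1 and the pseudogenes RPS12P23 and SLC35E1P1 near LATS2, all below 2 CPM. Antisense transcripts overlap WWTR1 (WWTR1-AS1, 0.617 to 0.814 CPM on average), YAP1 (ENSG00000277459, 2.28 to 2.49 CPM) and LATS1 (ENSG00000278899, 0.132 to 0.34 CPM). Whether counting used strand is not given, so reads of these pairs may not be separated, and the partners' levels were small beside those of the 3 genes.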

How the data were processed

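Raw gene-level counts, not normalized, were deposited by the authors for 9 libraries; 0 columns were left unused. The submitters' processing notes name fastp, HISAT2, Subread and featureCounts with GRCh38 (hg38); versions, annotation and strand setting are not given in the sources used here. Labels and methods differ on kit and layout (TruSeq Stranded, paired-end against NEBNext Ultra II, single-end). Identifiers were matched without version to GENCODE 44 (60507 of 60649), and unmatched ones held at most 0.0444% of a library.

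In R 4.3.3, edgeR 4.0.16 (filterByExpr, TMM) kept 19674 genes and removed 40975. A quasi-likelihood fit on all 9 libraries with group alone was used, with Benjamini-Hochberg adjustment over all tested genes and calls below 0.05. One CPM was 44.1 to 63.7 counts, and counts without molecular identifiers give counting error only. The fits were checked on simulated data. CPM values are means ± SD (n = 3). The members and gene lists were chosen with earlier results of these data known. Named genes were METTL3, the 10 genes, up to 4 called genes per role list by largest change against NC (mean of at least 1 CPM) with every TEAD, VGLL and MOB1 gene, the 5 genes most like AMOT, and neighbours within 500 kb that overlap or were called at least 2-fold; STK3, STK4, NF2, ANKRD1 and CRIM1 were added after their values were seen. Promoters came from RefSeq (GRCh38.p14). Alternatives were RLE or upper-quartile factors, other filters, DESeq2 1.42.0 (the study's tool), only the 6 libraries compared, a replicate block, leaving out each library, and a threshold of 0.01; for named genes outside the 10 they were added after seeing the data. A further leukocyte marker is not reported here.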

Additional observations from a re-analysis of the deposited data

Results flagged for a closer look

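For 4 of the 10 genes the level differed between SM2 and SM4, by the test of SM4 against SM2 (edgeR quasi-likelihood, Benjamini-Hochberg adjusted), in which NC drops out. AMOTL1 differed by 0.20 on the log2 scale (adjusted p 0.0162), with -0.09 in SM2 and 0.12 in SM4 against NC. LATS2 differed by -0.25 (adjusted p 0.0109), with 0.26 and 0.01. CCN1 differed by -0.47 (adjusted p 5.08e-07), with -0.37 and -0.84, and CCN2 by -0.59 (adjusted p 0.0001), with -0.23 and -0.82. CCN1 and CCN2 kept their calls under all 16 alternatives, and AMOTL1 and LATS2 lost theirs without single libraries, as given with their values above.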

How the results depend on the processing

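Other normalization factors, filters on low counts and DESeq2 changed the direction or call of none of the 10 genes in any comparison. At an adjusted p below 0.01 all genes gave 2775 calls for SM2 and 2646 for SM4 (both against NC) and 1393 for SM4 against SM2, the pathway lists gave 19 for SM2 against NC, and the 10 genes gave 2 for SM4 against NC as well as 2 for SM4 against SM2. With only the 6 libraries compared, 7 of the 9 genes were called in SM4 against NC, where AMOTL1, WWTR1 and TEAD1 joined. Leaving out single libraries gave 2 to 6 of the 9 genes in SM4 against NC, 2 to 5 of the 10 in SM4 against SM2, 15 to 27 pathway genes and 1574 to 2748 of all genes in SM4 against SM2. Near 0 the sign turned in LATS2 in SM4 against NC (-0.012 to 0.03) and, in SM4 against SM2, in WWTR1 (-0.053 to 0.021, above 0 as 0.007 and 0.021 without SM2 replicate 1 and SM4 replicate 3) and TEAD1 (-0.079 to 0.081). The cause was not tested. Over all genes tested, same-numbered libraries did not deviate together (r of -0.0497 to 0.0535 over 9 pairs). That gave no sign of pairing but cannot decide it for single genes. With the replicate block 6 of the genes were called for SM2 and 5 for SM4 (both against NC) and 6 for SM4 against SM2. There CCN2 joined in the first, WWTR1 in the second and YAP1 and LATS1 in the last, and of all genes 4693, 4484 and 2815 were called. With the longest transcript the levels per length were the same (CCN2) or higher, most of all for WWTR1 (13.5 in place of 8.17 CPM per kilobase in NC). AMOT in NC rests on 15 to 25 counts per library, which limits its fold changes.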
